A study of Homo sapiens with 2 samples.

Results

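ZFX, the gene that encodes the zinc finger transcription factor precipitated in this study, and its paralog ZNF711 were examined for peaks of the ZFX library. Both lie on chromosome X. The pair of genes was chosen by name, with the high-scoring peak at the ZFX start already known from the same list, and their peaks were selected by position on the hg19 build. A peak was assigned to a gene when it overlapped the gene body or the 5 kb upstream of its start. ZFX was taken as 24167762 to 24234372 on the plus strand and ZNF711 as 84498997 to 84528368 on the plus strand. Of the 14471 peaks in the list, 177 lay on chromosome X and 1 was assigned to ZFX. None was assigned to ZNF711.

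The study held 2 samples of DAOY, an established human medulloblastoma cell line, with 1 library each. In the ZFX sample, sheared chromatin was precipitated with a rabbit polyclonal antibody against Zfx, and in the input sample, sheared chromatin was not precipitated. Only the ZFX library has peaks in the data used, and the input sample is not analysed here. No read depth was given and no replicate exists among these samples, so each value below describes this 1 library. The labels give no treatment, genotype or second cell line.

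ZFX carries an acidic activating region followed by C2H2 zinc fingers, which contact DNA, and it is known for binding near the starts of many genes in CpG islands. In the mouse, Zfx is needed for self-renewal of embryonic and haematopoietic stem cells. ZFY on chromosome Y and ZNF711 on chromosome X encode the other proteins of the family in humans. ZNF711 is known as a partner of the histone demethylase PHF8 and as a gene mutated in X-linked intellectual disability. A transcription factor that binds the start of its own gene is a common arrangement, and the question addressed here was whether ZFX has a peak at its own gene and at that of its paralog.

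Because the peak list places the ZFX peak around a gene start, the 300 bases around the annotated starts are shown first. They are RefSeq sequence of build GRCh38.p14, the 250 bases before a start and the 50 bases from its first base on, and capitals mark the letters GGCCT or their reverse complement AGGCC, the core of the known ZFX motif AGGCCT. The first is the window of the ZFX start in the RefSeq gene table, chrX:24148732-24149031 on the plus strand. The next is the window of ZFX-AS1, an antisense noncoding RNA gene that overlaps the first 673 bp of the ZFX model, chrX:24149605-24149904, reversed here to the plus strand so that it reads in the direction of ZFX. ZNF711 has its window at chrX:85243741-85244040 on the plus strand. The ZFY window, chrY:2935131-2935430 on the plus strand, is shown for comparison with ZFX. ZFX-AS1 and ZFY were added after their sequences had been seen.
ZFX: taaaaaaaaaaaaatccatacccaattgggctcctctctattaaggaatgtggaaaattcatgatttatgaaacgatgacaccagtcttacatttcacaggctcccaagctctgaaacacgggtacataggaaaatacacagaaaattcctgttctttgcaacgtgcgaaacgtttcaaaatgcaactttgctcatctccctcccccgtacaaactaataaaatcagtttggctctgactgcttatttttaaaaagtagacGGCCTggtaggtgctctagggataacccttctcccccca
ZFX-AS1 window, ZFX strand: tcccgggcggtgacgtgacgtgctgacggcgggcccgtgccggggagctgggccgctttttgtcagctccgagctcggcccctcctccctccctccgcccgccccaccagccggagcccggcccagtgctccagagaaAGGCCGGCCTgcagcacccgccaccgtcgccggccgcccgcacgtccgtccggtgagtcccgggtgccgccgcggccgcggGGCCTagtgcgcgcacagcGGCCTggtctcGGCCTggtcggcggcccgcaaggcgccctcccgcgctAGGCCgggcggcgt
ZNF711: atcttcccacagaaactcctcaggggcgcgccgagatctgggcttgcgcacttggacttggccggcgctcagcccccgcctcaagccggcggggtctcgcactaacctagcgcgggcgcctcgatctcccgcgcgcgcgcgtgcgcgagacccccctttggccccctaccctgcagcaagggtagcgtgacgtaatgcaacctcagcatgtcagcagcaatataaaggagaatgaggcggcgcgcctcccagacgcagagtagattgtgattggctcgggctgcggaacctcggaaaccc
ZFY: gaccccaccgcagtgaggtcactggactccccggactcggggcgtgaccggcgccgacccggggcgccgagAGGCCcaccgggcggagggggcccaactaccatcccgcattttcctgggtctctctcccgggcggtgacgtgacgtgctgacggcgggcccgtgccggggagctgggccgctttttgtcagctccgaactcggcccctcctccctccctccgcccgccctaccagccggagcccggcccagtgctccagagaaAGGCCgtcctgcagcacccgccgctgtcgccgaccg

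Of these windows, that of the ZFX start in the gene table is AT-rich at its upstream end, whereas those of ZFX-AS1, ZNF711 and ZFY are rich in CG. The ZFX model in the table is 67274 bp long and the interval used for peaks is 66611 bp, a difference of 663 bp. For ZNF711 the lengths are 29367 bp and 29372 bp. The ZFX-AS1 start lies 672 bp into the longer ZFX model, close to the 663 bp difference in length. If both ZFX models end at the same base, the hg19 start lies close to the ZFX-AS1 start. Positions were not compared between builds, so which of the printed windows lies under the ZFX peak was not determined. The CG and letter counts of the ZFX window given below may therefore not be those of the sequence under the peak.

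ZFX had a high-scoring, wide peak centred on the start of the hg19 interval given above. The peak covered chromosome X from 24167133 to 24168375, a width of 1243 bp, with a score of 2381.95, the authors' own score with no stated unit. Whether that score measures enrichment or statistical significance is not given, so it is used here only to describe, order and filter peaks. It began 629 bp before the hg19 start and ended 613 bp after it. Its midpoint lay 8 bp before that start. The RefSeq model of ZFX is 663 bp longer, and the position of the peak relative to the RefSeq start was not determined. The peak covered the first 0.922% of that interval's gene body, and the rest of it held no listed peak.

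Within the list, 57 peaks scored at or above the ZFX peak, itself included, which is 0.394% of all peaks. These 57 lay on 19 chromosomes, and 1 of the other 56 was on chromosome X. Scores in the list ran from 50 to 3233 with a median of 108.9, and 28 peaks above ZFX shared the score 3100, so order at the top of the list is poorly resolved. In the order of scores, a peak on chromosome 12 with 2383.02 stood just above ZFX and a peak on chromosome 14 with 2380.96 just below it. With no replicate, no error can be given for this order. The width of the ZFX peak was near the middle of this group: the other 56 peaks were 449 to 9036 bp wide with a median of 1238 bp, and 28 of them were wider than the ZFX peak. Over the whole list, where the median width was 481 bp, 574 peaks (3.97%) were at least as wide.

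On chromosome X the ZFX peak was second by score and first by width. The only X peak with a higher score, 2626.25, lay at 108297216 to 108297875 and was 660 bp wide. The third X peak, at 54070408 to 54070926, scored 665.92 over 519 bp, and the fourth, at 53253732 to 53254576, scored 635.31 over 845 bp. No X peak scored between 665.92 and 2381.95, so the ZFX peak and the top X peak stood clear of all other X peaks. The median score on chromosome X was 86.3 and the median width 363 bp. By score per base of width, the ZFX peak ranked 78 in the list and 3 on chromosome X. With the unit of the score unknown, what a score per base measures is not clear.

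**Figure D1:**
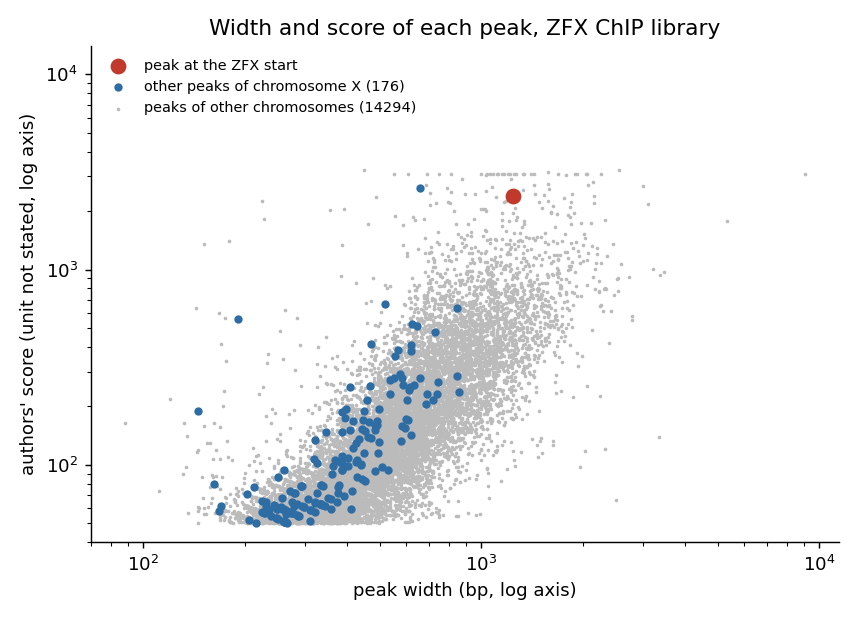
Each point is 1 peak of the ZFX library, with its width in bp on the horizontal log axis and the authors' score on the vertical log axis. The ZFX peak (red) has 1243 bp and a score of 2381.95 and stands apart from the other X peaks (blue), of which 1 scores higher with 2626.25 and the next lower scores 665.92.

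The ZFX peak had no other listed peak within 123 kb. The nearest peak before it ended at 24044092, 123 kb away, and scored 62.78 over 334 bp. In the 500 kb before the ZFX peak there were 5 peaks, with scores of 51.20, 149.35, 102.48, 62.79 and 62.78 in order along the chromosome. All of these scores lay far below that of the ZFX peak. In the RefSeq gene order, EIF2S3, which encodes the gamma subunit of the translation initiation factor eIF2, is the nearest protein-coding gene before ZFX, and SUPT20HL2 is the nearest after it. None of the 5 peaks was assigned to a gene here.

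After the ZFX peak, no peak was listed for 13.5 Mb. The next one, at 37706241 to 37706502, had a score of 50.81, close to the lowest score in the list. This was the second longest of the 176 gaps between neighbouring peaks on chromosome X, whose median was 245 kb. The distance of the ZFX peak to its nearest peak was exceeded by 67 of the 177 X peaks (37.9%) and by 13.4% of all peaks. The nearest-peak distance itself was thus not unusual for chromosome X, and what stood out was the empty stretch on the downstream side. Of the other 56 peaks that scored at or above the ZFX peak, 11 had a peak within 1 kb.

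ZNF711 held no peak in its gene body or in the 5 kb before it. The nearest peak before the gene, at 77041104 to 77041822, scored 215.31 and lay 7.46 Mb from the gene start. After the gene, the nearest peak lay 16.1 Mb from the gene end, at 100673267 to 100673684, and scored 167.11. ZNF711 thus lay inside the longest gap between peaks on chromosome X, 23.6 Mb. This gap and the one after ZFX together made up 24.5% of the span between the outermost X peaks. The lowest score in the list was 50, so a weaker site at ZNF711 would not appear in it, and with depth unknown no upper limit can be given for one.

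**Figure D2:**
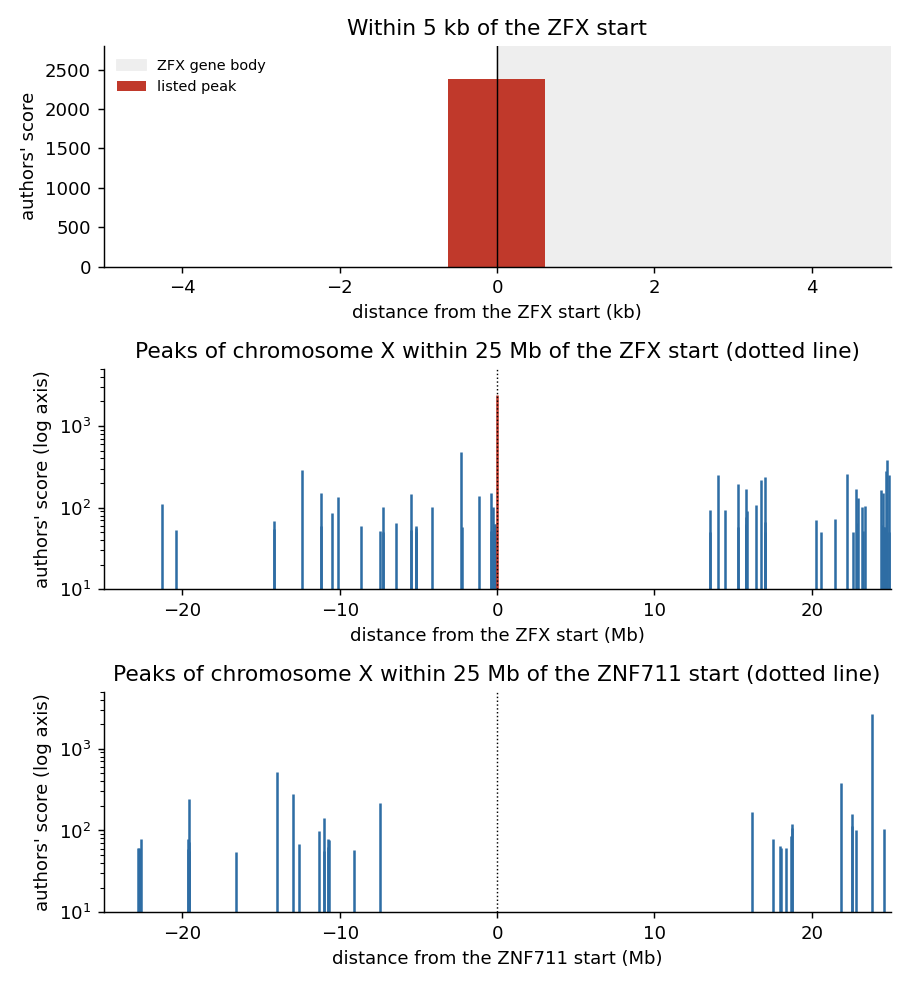
Peaks of chromosome X by distance from the gene start and by the authors' score, within 5 kb of the ZFX start (top, linear score), within 25 Mb of the ZFX start (middle, log score) and within 25 Mb of the ZNF711 start (bottom, log score). The ZFX peak (red) spans the start of the hg19 interval and is followed by 13.5 Mb without a peak, and the stretch around ZNF711 has no peak for 7.46 Mb before the gene and 16.1 Mb after it.

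At both lengths searched, most windows held no peak, on chromosome X and on the autosomes. Laid side by side between the outermost X peaks, windows of 71.6 kb, the length searched for ZFX, held a peak in 143 of 2122 cases (6.74%). On the autosomes the share was 21.7% (8409 of 38825 windows). For windows of 34.4 kb, the length searched for ZNF711, it was 3.33% on chromosome X (147 of 4421) and 12.3% on the autosomes (9941 of 80898). The peak at ZFX was known when the gene was chosen, so the first of these shares only describes chromosome X and does not weigh that peak. The absence of a peak at ZNF711 was shared by all but 3.33% of X windows of its length. These windows were placed without regard to genes, so the shares for windows that hold a gene start were not obtained.

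The annotated starts differed in sequence. The window of the ZFX start in the gene table held 7 CG dinucleotides with 40.7% G+C, whereas the ZFX-AS1 window, whose start lies 672 bp further into ZFX, held 44 with 78.7% G+C. Among the 35116 RefSeq windows of 27305 genes the median was 14, and 3.48% had more than the ZFX-AS1 window. The ZNF711 window held 31 CG dinucleotides with 65.0% G+C, and 18.9% of windows had more. ZNF711 had no listed peak, and the window of its RefSeq start was richer in CG than 79.3% of windows. A relation between CG content and peaks was not tested. ZNF711 also faces SATL1 on the opposite strand. SATL1 has 2 windows, and the nearer one shares 289 of its 300 bases with the ZNF711 window. A peak there would thus not have told one gene from the other.

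**Figure D3:**
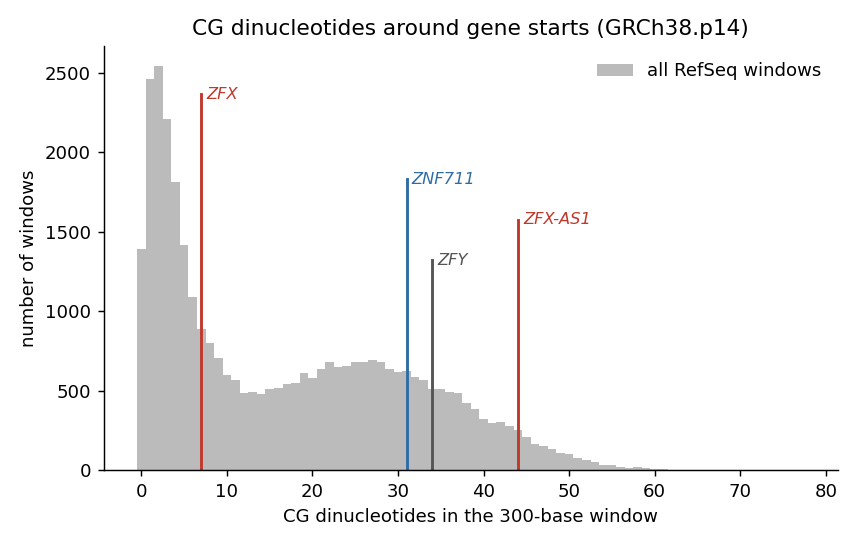
Number of RefSeq windows of 300 bases (grey bars) by the CG dinucleotides they hold. Vertical lines mark the window of the ZFX start in the gene table (7) and those of ZNF711 (31), ZFY (34) and ZFX-AS1 (44). The heights of the lines only separate the labels.

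AGGCCT, which is its own reverse complement, was in neither the ZFX nor the ZNF711 window, and was also absent from those of ZFX-AS1 and ZFY. In all, 10.9% of windows held it. The shorter GGCCT, searched on both strands as GGCCT and AGGCC, occurred once in the ZFX window and nowhere in the ZNF711 window, and 56.2% of all windows held at least 1. AGGCCT contains both of the shorter forms. The ZFX-AS1 window held 6 matches, 4 as GGCCT and 2 as AGGCC on the ZFX strand, against a median of 1 over all windows. At least 6 matches were found in 0.806% of windows, and in 0.748% of the 1471 windows with at least 44 CG dinucleotides. Both cut-offs are the values of the ZFX-AS1 window, which was added after its sequence had been seen. These shares therefore only describe that window. The ZFY window held 2 matches.

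The CG-rich sequence inside the ZFX model and the ZFY start were nearly the same. Over 174 bases without a gap, the ZFX-AS1 window on the ZFX strand and the ZFY window were identical at 168 (96.6%). The alignment ran from base 1 of the printed ZFX-AS1 window and from base 127 of the printed ZFY window to the end of the ZFY window (base 300). In it, the first base of ZFY corresponds to a base 747 bp downstream of the ZFX start in the gene table. Of the 35115 other windows aligned with that of ZFY on either strand, ZFX-AS1 gave the highest score, 318 against 53 for the next one (match 2, mismatch −3). The ZNF711 window showed no such likeness to ZFX. Its score was 18 with the ZFX window and 25 with the ZFX-AS1 window, where the median over all other windows was 20. By score with ZNF711, the ZFX-AS1 window ranked 2871 and the ZFX window 24804 among the 35115 other windows. No interval was available here for ZFY on hg19, so no peak was assigned to it.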

How the data were processed

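ZFX ChIP-seq peaks of 1 DAOY library were analysed, and the input library was not analysed here. Per the submitters' processing notes, Bowtie2 2.0.0 and hg19 were used, without stated roles. The names of the deposited peaks carry MACS; which version, threshold or control was used for them is not given in the sources here. The score of each peak was deposited by the authors without a unit and was used only to describe, rank and filter peaks. It was also divided by width for a ranking by score per base. Starts and ends, other deposited values, were taken as hg19 positions, with starts counted from 0 and printed from 1. The peak names number 1 to 14471 without a gap. Depth is unknown, so no counting error was given.

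The members, lists and windows were chosen with earlier results of these data known. Gene intervals on hg19 came with the question. A peak was assigned by an overlap of at least 1 base. There was no test, since 1 library has no replicate and the rule uses the peaks. Genes named were the members, ZFY, their neighbours in gene order, X peaks at or next to the rank of the ZFX peak, and peaks beside each gene. PHF8 is named as background only. Neighbours, promoter windows and sequences came from RefSeq tables on GRCh38.p14 and were matched by symbol: both members had 1 window each. Windows were compared by local alignment (match 2, mismatch −3, gap opening −5, extension −2). A planned comparison of zinc fingers and protein identity was not run, because proteins were not used here. Functions were tested on simulated data. The tools were Biopython 1.88, Python 3.11.15, pandas 2.3.3, numpy 2.4.6, matplotlib 3.10.9 and scipy 1.17.1.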

Additional observations from a re-analysis of the deposited data

How the results depend on the processing

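Of 33 alternatives for 12 results, all set with earlier results of these data known, 26 left the value within 1.5 times the main one or within its 95% interval. ZFX kept 1 peak and ZNF711 none in each of the 7 settings tried for each gene, which were the gene body alone, 1 kb upstream, 50 kb on either side, midpoints, peaks above the median score, peaks joined at 1 kb and starts counted from 1. Neither count could change under these 7 settings, which for both genes are among the 26, so they say nothing about stability. The nearest other peak lay 123 kb from the ZFX peak, whose score was far above the median. The peak nearest to ZNF711 lay 7.46 Mb from the gene. It scored 215.31, above the median, so keeping only peaks above the median could not change that distance. Ranked by width, the ZFX peak was 572nd in the list, against 57th by score, and 1st on chromosome X, against 2nd by score. By score per base of width, the rank of the ZFX peak on chromosome X was 3 against 2. That is exactly at the limit of 1.5 times and was counted as unchanged. When only peaks above the median score were kept, fewer windows held a peak by construction: 3.16% on chromosome X and 13.9% on autosomes for the ZFX length, and 1.49% and 7.44% for the ZNF711 length. With GGCCT on either strand in place of AGGCCT, 1 of the 2 member windows, that of ZFX, held the letters in place of 0. By construction this count could not fall. Intervals for shares of windows are exact binomial and treat windows as independent. No paired analysis was possible because each group has 1 library. Depth is unknown, and peaks under the lowest listed score of 50 could not be counted.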
